A study of Mus musculus with 12 samples.

Results

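The 10 genes described here encode receptors for extracellular nucleotides and adenosine and the surface enzymes that turn nucleotides into adenosine. They are P2ry10, P2ry6, P2ry12, P2ry13 and P2ry14 of the P2Y class, the ion channels P2rx4 and P2rx7, the ecto-enzymes Entpd1 and Nt5e, and the adenosine receptor Adora2b. They were chosen by name, with earlier results of these libraries known, among the 36439 genes that were counted, and all 10 were found by matching Ensembl identifiers to mouse symbols. ATP and other nucleotides leave stressed or dying cells and act on P2X channels and on G-protein-coupled P2Y receptors of neighbouring cells. CD39 (Entpd1) removes phosphates from ATP and ADP to give AMP, CD73 (Nt5e) turns AMP into adenosine, and adenosine acts on its own receptors. Macrophages are known to carry many of these proteins, and in tumours the enzymes are studied because adenosine dampens immune cells.

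RNA was sequenced from tumour-associated macrophages (TAMs) isolated from Lewis lung carcinomas, tumours of a mouse carcinoma line, that grew subcutaneously in C57BL/6 animals. The 12 libraries form 4 groups of 3. MRC1+ TAMs carried the pan-macrophage surface protein F4/80 and the mannose receptor MRC1, and CD11c+ TAMs carried F4/80 and the integrin CD11c. The miR-511-3p TAMs were F4/80+ TAMs labelled as overexpressing miR-511-3p, a microRNA, and the mutated miR-511-3p TAMs were F4/80+ TAMs with a mutated form of it. The titles of both overexpression groups carry the prefix SFFV, which the labels do not explain. Age, vector and host of the overexpression are not given there, nor whether the libraries of a group came from separate mice. The p-values below therefore measure only the spread between libraries, which may be technical.

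Levels are gene reads relative to library size (CPM) with TMM scaling over the 12 libraries, written TMM CPM, given for libraries 1, 2 and 3 of a group in that order, and means carry the SD with n = 3. Gene reads ranged from 10824918 to 17689064 per sorted library and from 22906418 to 27890433 per overexpression library. The genes behind the sort followed the labels. Mrc1 stood at 3507 ± 236 TMM CPM in MRC1+ and 1506 ± 179 in CD11c+ TAMs. Itgax, which encodes CD11c, stood at 94.4 ± 20.1 and 922 ± 53.0 TMM CPM. Adgre1, which encodes F4/80, lay at 535 or more TMM CPM in every library. Reads over no annotated gene made up 19.7% to 26.6% of each sorted library and 7.64% to 10.4% of each overexpression library, so no test was run between these sets, and the set and the group cannot be told apart. In bulk RNA, fewer cells of a type and less RNA per cell cannot be told apart.

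The bases just before the start of transcription were read for the members from RefSeq's table for GRCm38.p6. The table held a promoter for 9 of the 10 members, with 15 start sites in all. Shown 5′ to 3′ on the gene's own strand are the 250 bases before the start for 6 of them, none of which lies in a GENCODE M21 transcript. They were chosen to set P2ry10, the member with the widest range of levels, beside its relatives and beside 1 member of each other class. Capitals mark matches on either strand to GAGGAA (PU.1-type), TGANTCA (AP-1-type) or ACGTG (hypoxia-response-type).
P2ry10, chrX:107088242-107088491, plus strand: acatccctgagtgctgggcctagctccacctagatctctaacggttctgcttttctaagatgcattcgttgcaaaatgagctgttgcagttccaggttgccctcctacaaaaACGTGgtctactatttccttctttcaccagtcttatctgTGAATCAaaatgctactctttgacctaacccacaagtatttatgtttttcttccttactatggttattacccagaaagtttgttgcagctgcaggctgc
P2ry14, chr3:59131329-59131578, minus strand: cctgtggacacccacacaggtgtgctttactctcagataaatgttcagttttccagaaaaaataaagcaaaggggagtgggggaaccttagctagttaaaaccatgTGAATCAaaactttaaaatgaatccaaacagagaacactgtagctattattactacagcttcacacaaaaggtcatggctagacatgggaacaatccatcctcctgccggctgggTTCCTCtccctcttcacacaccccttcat
P2ry13, chr3:59210883-59211132, minus strand: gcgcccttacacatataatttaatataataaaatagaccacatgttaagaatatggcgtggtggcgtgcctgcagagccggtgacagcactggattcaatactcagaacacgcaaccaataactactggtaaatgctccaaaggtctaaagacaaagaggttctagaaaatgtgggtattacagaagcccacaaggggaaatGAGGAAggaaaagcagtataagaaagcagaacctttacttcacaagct
P2rx7, chr5:122643677-122643926, plus strand: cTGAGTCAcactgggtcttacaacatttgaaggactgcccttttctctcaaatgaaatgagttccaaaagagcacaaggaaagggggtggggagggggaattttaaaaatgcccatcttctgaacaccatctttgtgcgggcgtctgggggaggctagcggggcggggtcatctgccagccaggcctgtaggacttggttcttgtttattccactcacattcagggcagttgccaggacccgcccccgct
Entpd1, chr19:40659520-40659769, plus strand: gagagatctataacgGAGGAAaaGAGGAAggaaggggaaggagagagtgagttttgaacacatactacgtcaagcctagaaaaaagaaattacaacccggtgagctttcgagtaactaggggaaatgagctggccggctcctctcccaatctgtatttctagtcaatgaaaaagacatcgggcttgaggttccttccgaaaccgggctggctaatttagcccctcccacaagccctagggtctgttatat
Adora2b, chr11:62248734-62248983, plus strand: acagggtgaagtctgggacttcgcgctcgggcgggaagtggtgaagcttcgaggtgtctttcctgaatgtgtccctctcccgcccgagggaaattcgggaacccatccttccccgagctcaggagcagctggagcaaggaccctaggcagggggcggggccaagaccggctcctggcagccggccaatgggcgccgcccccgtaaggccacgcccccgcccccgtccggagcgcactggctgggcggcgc
PU.1 and AP-1 are transcription factors of macrophages, and ACGTG is the core that hypoxia-inducible factors bind. Windows of 300 bases, 250 before and 50 after the start, were searched for the motifs. GAGGAA occurred in 28.3% of 32851 RefSeq promoters and in 9 of the 15 promoters of members, from 5 members. These were P2ry10, P2ry13, P2ry14, P2rx7 and Entpd1, of which all but P2ry13 have more than 1 start. Of the members with 1 start, P2ry12, P2rx4, Nt5e and Adora2b had no match. Starts of the same gene are not separate members, so nothing is read from these shares, here or for the motifs below. Windows of neighbouring P2ry14 starts overlap, so the same match can be counted again. TGANTCA occurred in 7.81% of all promoters and in 4 of the 15, from 3 members, P2ry10, P2ry14 and P2rx7. At the starts shown it began 99 bases before that of P2ry10 and 144 before that of P2ry14. ACGTG occurred in 19.6% of all promoters and in 2 of the 15, from P2ry10 and P2ry12. An interferon-response-type motif, present in 3.44% of all promoters, matched no window of a member. P2ry10 is on the X chromosome. P2ry12, P2ry13 and P2ry14 lie side by side on chromosome 3, within the span of Med12l on the opposite strand. The sources used here do not say whether strand was used in counting, so reads of Med12l there cannot be told apart from theirs. P2ry12 shares 9 exonic bases with it and the other two share none. P2rx7 and P2rx4 are neighbours on chromosome 5.

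P2ry10 had the widest range of the 10 genes. It is a P2Y-class receptor by sequence whose known ligand is the lipid lysophosphatidylserine and not a nucleotide. Its level was 10.6, 6.85 and 4.82 TMM CPM in MRC1+ TAMs and 182, 207 and 269.5 in CD11c+ TAMs. All 3 CD11c+ libraries lay far above all 3 MRC1+ libraries. In miR-511-3p TAMs it was 5.55, 2.24 and 4.60 TMM CPM and in mutated miR-511-3p TAMs 3.75, 5.96 and 10.3. The 9 libraries outside the CD11c+ group overlapped from group to group. The difference of MRC1+ minus CD11c+ TAMs, 7.42 ± 2.94 against 219 ± 45.3 TMM CPM, was -4.88 ± 0.30 on the log2 scale (SE), or 29.5-fold. This contrast was in view when the members were chosen, so for all 10 it is given as a description with no test. P2ry10 shares 5.04% of its 36-base stretches with P2ry10b, its neighbour and relative, and reads from these could be split or lost in counting.

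P2ry6, the receptor for UDP, was nearly level between the sorted groups. It stood at 62.6, 56.4 and 57.2 TMM CPM in MRC1+ and 52.1, 55.7 and 51.4 in CD11c+ TAMs. The groups lay apart by a narrow margin, with a log2 difference of 0.15 ± 0.08. In the overexpression groups P2ry6 was 203, 233 and 221 TMM CPM with miR-511-3p and 201, 228 and 190.3 with its mutated form. Every library of these groups lay above every sorted library. The share of all genes that lay apart in this way was not counted, so nothing is read from it here or for genes below.

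P2ry12, an ADP receptor known from platelets and microglia, was 49.4, 51.1 and 45.9 TMM CPM in MRC1+ TAMs and 29.7, 32.9 and 25.8 in CD11c+ TAMs. The MRC1+ libraries all lay higher, by 0.73 ± 0.10 on the log2 scale or 1.66-fold. In the overexpression groups it was 60.4, 44.8 and 45.5 TMM CPM against 59.9, 46.3 and 42.0, which overlapped with each other and with MRC1+ TAMs. Of the platelet markers, Pf4 and Ppbp moved with P2ry12 in the sorted groups. The summed level of the 7 listed was 413 to 508 TMM CPM in MRC1+ and 120.2 to 182 in CD11c+ TAMs, nearly all of it from Pf4 with means of 381 and 133 TMM CPM and Ppbp with 69.4 and 24.7. Both were higher by edgeR's test, while Itga2b, the third platelet gene tested, was level at 2.10 and 2.08 TMM CPM. Gp9, Gp1bb, Gp6 and Tubb1 had a mean under 1 TMM CPM in every group, with Gp6 at 0 in MRC1+ TAMs. Their part in the P2ry12 difference was not tested.

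P2ry13, the other ADP receptor of the cluster, was 27.7, 39.2 and 22.7 TMM CPM in MRC1+ and 26.9, 47.8 and 26.2 in CD11c+ TAMs. The groups overlapped, and the second library was the highest in each. The second libraries also held the highest summed T and NK cell markers of their groups, 129 and 107 TMM CPM, of which Cd4 gave 119 and 89.8. The part of this in P2ry13 was not tested. With miR-511-3p P2ry13 was 31.3, 21.1 and 26.4 TMM CPM and with the mutated form 39.4, 23.1 and 22.6, so its ranges overlapped between all neighbouring groups.

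P2ry14, the receptor for UDP-glucose and related sugars, went the other way from its neighbour P2ry12. It was 14.2, 16.7 and 10.1 TMM CPM in MRC1+ and 22.1, 27.2 and 21.0 in CD11c+ TAMs. Each CD11c+ library lay above each MRC1+ library, with a log2 difference of -0.77 ± 0.19 or 1.71-fold. In the overexpression groups it stood at 32.0, 23.8 and 31.2 TMM CPM against 35.4, 22.3 and 29.96, which overlapped with CD11c+ TAMs.

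P2rx4 and P2rx7 are ATP-gated cation channels. P2rx4 responds to low ATP and cycles through lysosomes, while P2rx7 needs high ATP and is known for setting off the NLRP3 inflammasome. P2rx4 was 97.2, 109 and 94.0 TMM CPM in MRC1+ and 81.8, 133 and 99.6 in CD11c+ TAMs. The groups overlapped (log2 difference -0.06 ± 0.17), and the sign turned to 0.14 without the second CD11c+ library. With miR-511-3p it was 205, 219 and 210.3 TMM CPM and with the mutated form 204, 227 and 197.

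P2rx7 was 138, 127 and 126 TMM CPM in MRC1+ and 80.2, 94.0 and 65.0 in CD11c+ TAMs. All MRC1+ libraries lay higher, by 0.71 ± 0.13 on the log2 scale or 1.64-fold. In the overexpression groups it was 199.8, 189.8 and 148 TMM CPM against 161, 159.8 and 160.0. The miR-511-3p libraries lay on both sides of the mutated ones, and for both channels all of these libraries exceeded all sorted ones.

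**Figure D1:**
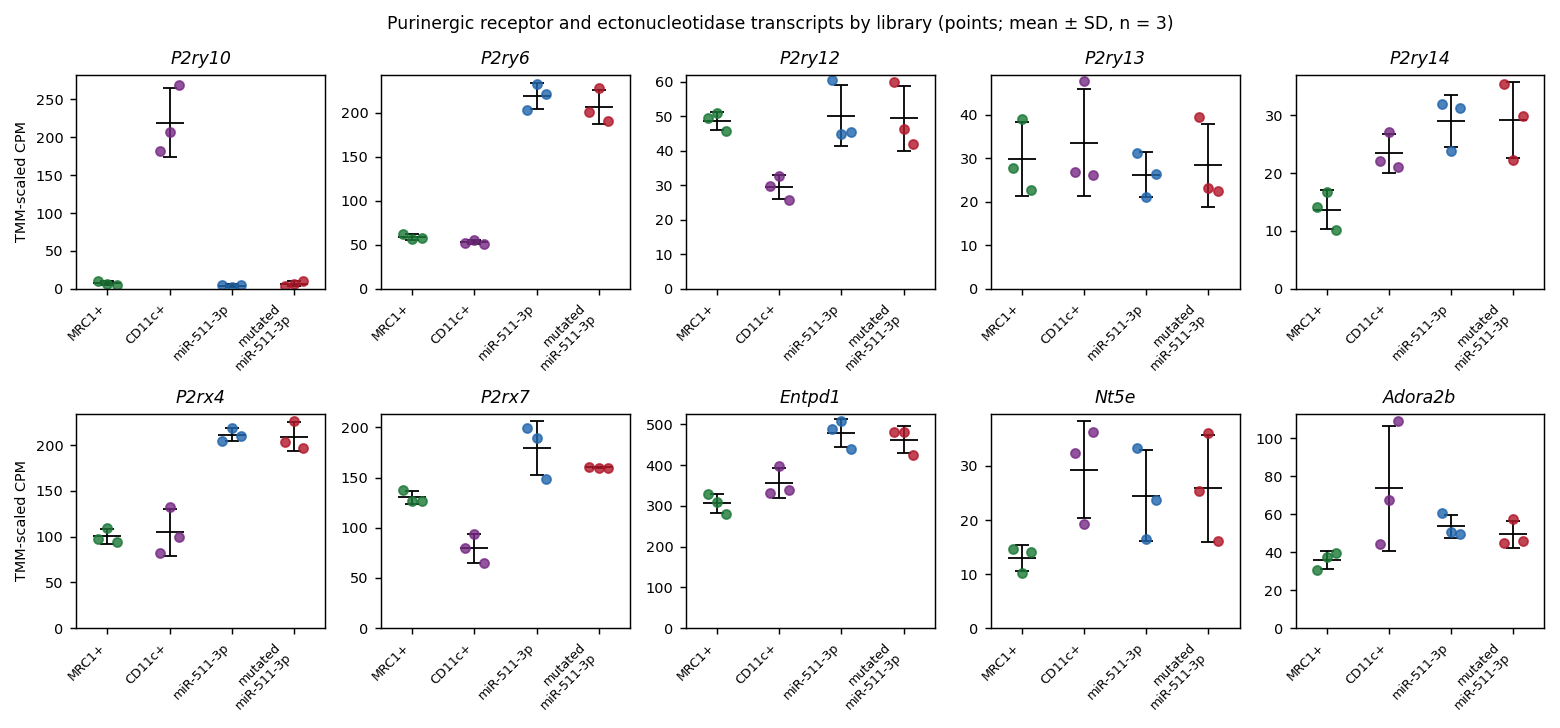
Level of each of the 10 genes in each library (points, TMM CPM on a linear axis from 0, scaled for each gene) with the group mean ± SD as bars, n = 3, for MRC1+, CD11c+, miR-511-3p and mutated miR-511-3p TAMs. P2ry10 stands at 182 to 269.5 TMM CPM in CD11c+ TAMs and at 10.6 or less elsewhere, whereas P2ry13 overlaps in all 4 groups.

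Entpd1, which encodes CD39, differed little between sorted TAMs. It was 329, 308.4 and 281 TMM CPM in MRC1+ and 332, 399 and 338 in CD11c+ TAMs. The CD11c+ libraries lay just above, with a log2 difference of -0.21 ± 0.11. With miR-511-3p it was 488, 509 and 440.2 TMM CPM and with the mutated form 482, 482 and 426, all above the sorted libraries.

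Nt5e, which encodes CD73, was 14.7, 10.2 and 14.1 TMM CPM in MRC1+ and 32.3, 19.2 and 36.3 in CD11c+ TAMs. The groups lay apart, with a log2 difference of -1.16 ± 0.25 or 2.24-fold. The second CD11c+ library was the lowest of its group. With miR-511-3p Nt5e was 33.3, 16.6 and 23.7 TMM CPM and with the mutated form 25.4, 36.02 and 16.1, which overlapped with each other and with CD11c+ TAMs. Fibroblasts also carry CD73. The summed level of the 9 fibroblast markers was 584 to 807 TMM CPM in MRC1+ TAMs and 1131, 255 and 304 in CD11c+ libraries 1, 2 and 3, and none of the 9 passed edgeR's test. The part of these markers in the Nt5e values was not tested.

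Adora2b encodes the low-affinity adenosine receptor that raises cyclic AMP. It was 30.6, 37.5 and 39.7 TMM CPM in MRC1+ and 44.3, 67.5 and 109 in CD11c+ TAMs. No libraries overlapped, but the CD11c+ libraries differed among themselves more than the groups did at their nearest. The log2 difference was -1.03 ± 0.29 or 2.04-fold, and it was -0.61 without the third CD11c+ library. That library also had the highest level of its group in Il1b, with 2546, 3478 and 6015 TMM CPM, and in Nlrp3, with 241, 379.6 and 737. Its summed dendritic cell markers were 659 TMM CPM against 371 and 386 in the other CD11c+ libraries. Their part in the Adora2b value was not tested. In the overexpression groups Adora2b was 60.5, 50.4 and 49.7 TMM CPM with miR-511-3p and 44.7, 57.7 and 46.1 with the mutated form, within the CD11c+ range.

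Of the 10 members, 3 had all MRC1+ libraries above all CD11c+ libraries (P2ry6, P2ry12 and P2rx7), 5 had them below (P2ry10, P2ry14, Entpd1, Nt5e and Adora2b), and P2ry13 and P2rx4 overlapped. Over all 15622 genes tested, 17.7% lay apart with MRC1+ higher and 20.6% with MRC1+ lower, 38.3% in all. P2ry10, Nt5e and Adora2b differed 2-fold or more, as did 7.88% of all genes tested. The median log2 difference of the members was -0.19 and that of all genes tested 0.01. Since the contrast guided the choice of the genes, nothing is read from these counts.

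**Figure D2:**
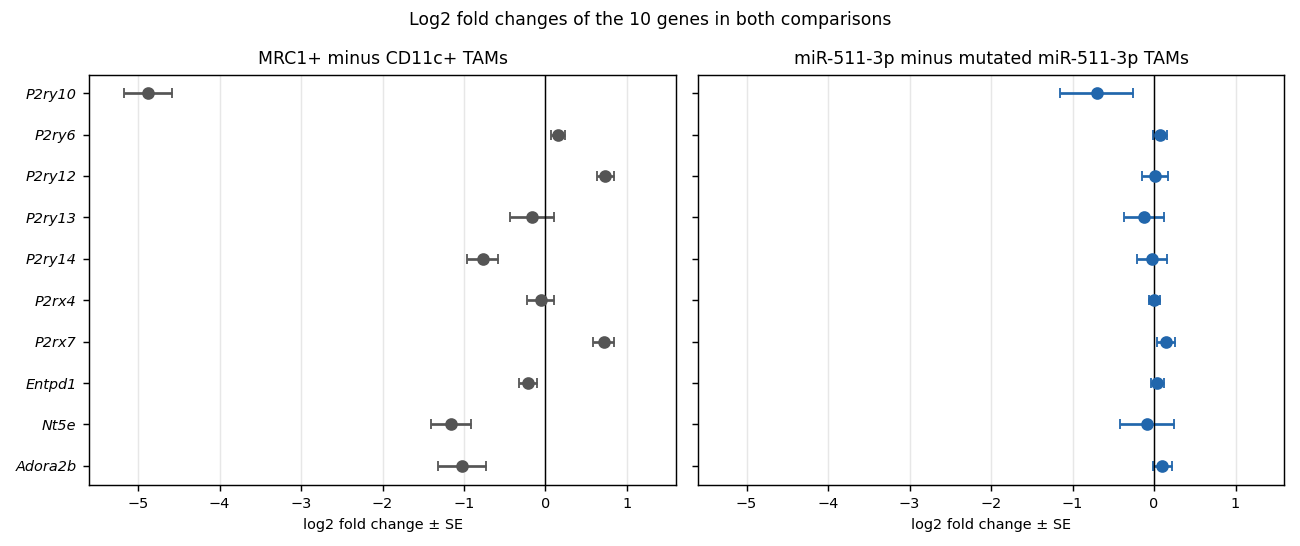
Log2 difference of each gene with its SE (bars) in MRC1+ minus CD11c+ TAMs and in miR-511-3p minus mutated miR-511-3p TAMs. In the first, values run from -4.88 (P2ry10) to 0.73 (P2ry12), and in the second from -0.70 (P2ry10) to 0.15 (P2rx7).

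Dendritic cell and monocyte markers moved in the sorted groups together with the members that were higher in CD11c+ TAMs. The 11 dendritic cell markers summed to 71.8 to 81.0 TMM CPM in MRC1+ and 371 to 659 in CD11c+ TAMs, and 8 of 11 were lower in MRC1+ TAMs by edgeR's test at an adjusted p of 0.05. None was at 0 in a whole group. Among them Cd209a was 1.19 to 1.89 TMM CPM in MRC1+ and 37.8 to 70.5 in CD11c+ TAMs, and Siglech had a mean under 1 TMM CPM in each group. The 6 monocyte markers summed to 368 to 498 TMM CPM in MRC1+ and 1561 to 2054 in CD11c+ TAMs, with 5 of 6 lower in MRC1+ TAMs. Ccr2 gave the largest part of these sums, with means of 276 and 1340 TMM CPM, while Ly6c2 had 3.00 and 15.4. T cells also express P2ry10. Of the 11 T and NK cell markers 9 were tested, with 0 higher and 2 lower in MRC1+ TAMs and a median log2 difference of -0.50. Gzma had a mean of 0.911 TMM CPM in MRC1+ and 3.99 in CD11c+ TAMs, and Klrb1c 0.461 and 1.57. Cd3d, Cd3e, Trac and Ncr1 had a mean under 1 TMM CPM in every group, while Cd4, which macrophages also express, gave most of the summed 64.1 to 129 TMM CPM in MRC1+ and 29.9 to 107 in CD11c+ TAMs. Cd3e reached 2.34 TMM CPM in the third mutated miR-511-3p library, where P2ry10 was the highest of its group at 10.3. The 7 macrophage markers summed to 4393 to 5067 TMM CPM in MRC1+ and 3603 to 4594 in CD11c+ TAMs. Of 6 endothelial markers 4 were tested, with 3 lower and 1 higher in MRC1+ TAMs. Pecam1 was among the lower, with means of 19.5 and 77.5 TMM CPM, and Cdh5 was the higher, with 4.13 and 1.76. All 6 epithelial and carcinoma markers passed, 4 higher and 2 lower in MRC1+ TAMs. Krt18 was among the higher, with means of 31.4 and 14.3 TMM CPM. The 2 lower were Cdh1, with 4.19 and 54.9, and Epcam, with 0.0873 and 1.28. The part of these markers in the members' differences was not tested.

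Levels were also set per kilobase of exon (TMM CPM per kb) so that genes could be compared with each other. In MRC1+ TAMs Entpd1 led at 54.9 ± 4.29 TMM CPM per kb, apart from P2rx7 at 21.8 ± 1.05, and P2ry10, Nt5e and P2ry14 were the lowest with 2.49, 1.51 and 1.24. In CD11c+ TAMs P2ry10 came first at 73.5 ± 15.2 TMM CPM per kb, but its range overlapped with that of Entpd1 at 63.9 ± 6.61. P2ry10 gave 1.49% of the summed level per kb of the 10 genes in MRC1+ and 28.9% in CD11c+ TAMs. In both overexpression groups Entpd1 and P2ry6 led with overlapping ranges, at 85.9 ± 6.33 and 75.9 ± 5.24 TMM CPM per kb under miR-511-3p. P2ry10 was last in both, and its range overlapped with that of P2ry14 under the mutated form. Within each group Entpd1 exceeded Nt5e per kb, with Nt5e between 1.51 and 3.41. P2ry14 has an annotated exon length of 11059 bases, which lowers its level per kb if much of that length is not used in these cells.

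**Figure D3:**
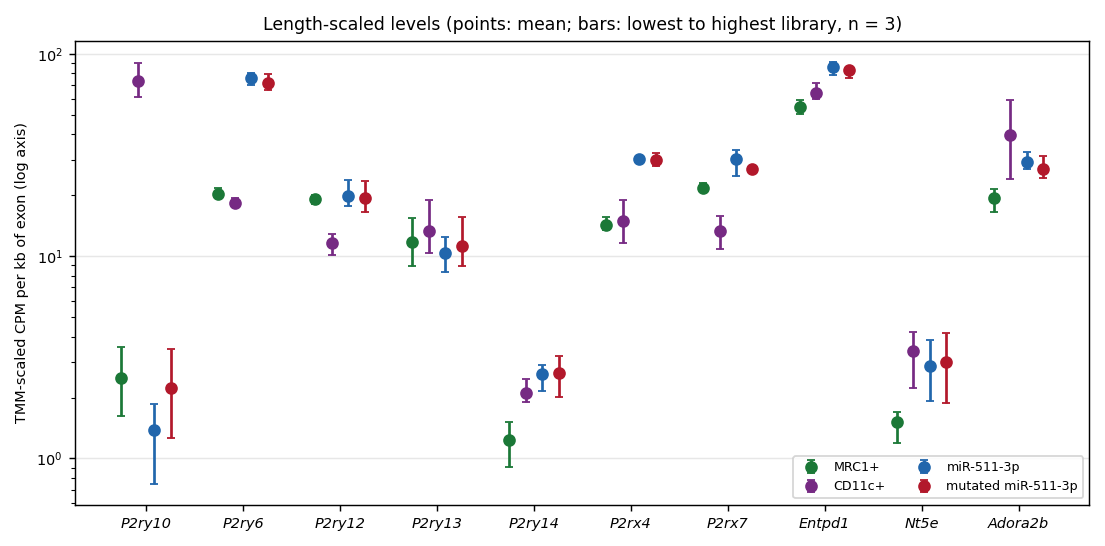
Mean level per kilobase of exon of the 10 genes in each group (points, TMM CPM per kb on a log axis, bars from the lowest to the highest of 3 libraries). Entpd1 has the highest mean in 3 groups, but its libraries overlap with those of P2ry6 in both overexpression groups. In CD11c+ TAMs P2ry10 at 73.5 lies above Entpd1 at 63.9 with overlapping libraries.

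The comparison of miR-511-3p with its mutated form asked which genes respond to the microRNA. The choice of the 10 genes did not rest on this contrast. Earlier results of these libraries were known at the choice, so the test is not fully independent of it. All 10 were tested with edgeR's quasi-likelihood test over 14054 genes, and 0 passed at an adjusted p of 0.05, where 0% of all genes passed. In this unpaired fit none had an unadjusted p under 0.05, which 343 of all genes (2.44%) had, and DESeq2 also called 0 of the 10. With a block for the replicate number 811 genes had an unadjusted p under 0.05 by edgeR. The members' unadjusted p in that fit are not given here. None had groups that lay apart, which 6.48% of all genes had (3.45% higher and 3.03% lower), and none differed 2-fold, which 2.6% had. The largest difference was that of P2ry10, with 4.13 ± 1.71 TMM CPM under miR-511-3p and 6.67 ± 3.34 under the mutated form. Its log2 difference was -0.70 ± 0.45 (edgeR adjusted p = 0.9999), and it was -0.23 without the third mutated library. P2rx7 was at 179 ± 27.2 against 160.3 ± 0.643 TMM CPM and a log2 difference of 0.15 ± 0.11 (edgeR adjusted p = 0.9999). P2ry6, P2rx4 and Entpd1, among the members with the highest levels per kb, differed by 0.08 ± 0.08, 0.01 ± 0.07 and 0.04 ± 0.08 on the log2 scale. The differences of Nt5e and P2ry13 were -0.08 ± 0.33 and -0.12 ± 0.24, with the widest errors after P2ry10. P2ry12, P2ry14 and Adora2b differed by 0.01 ± 0.16, -0.02 ± 0.19 and 0.10 ± 0.12. The median over the members was 0.01 and that over all genes tested 0.00270. These errors are SEs and not a limit of detection. Differences within them, and some beyond them as for P2ry10 and P2rx7, were not detectable with 3 libraries a group.

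Other genes of purinergic signalling were then described from a list of 44, of which 43 were found. This list was also drawn up with earlier results of these libraries known. Its counts and adjusted p in MRC1+ minus CD11c+ TAMs, here and below, are therefore a description and no independent test. In MRC1+ minus CD11c+ TAMs 30 were tested by edgeR, and 3 were higher and 12 lower at an adjusted p of 0.05, against 6.91% higher and 9.71% lower of all genes tested. With upper-quartile scaling these numbers were 5 higher and 10 lower, and over all genes tested 1348 higher and 1325 lower in place of 1080 and 1517. Their median log2 difference was -0.41, beside 0.01 over all genes tested. Under miR-511-3p 27 were tested and 0 passed by edgeR or DESeq2, with 0 at an unadjusted p under 0.05, and their median was 0.03.

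Among 10 other P2Y receptors and near relatives, 7 were tested, 1 was higher and 3 were lower in MRC1+ TAMs. Gpr171, an orphan receptor in the same stretch of chromosome 3 as P2ry12 to P2ry14, was 26.4, 34.6 and 15.1 TMM CPM in MRC1+ and 145, 187 and 183 in CD11c+ TAMs. It fell by 2.75 ± 0.27 on the log2 scale (edgeR adjusted p = 0.000455). P2ry10b, the neighbour of P2ry10, was 69.2, 61.5 and 71.4 against 94.9, 98.2 and 126 TMM CPM, a log2 difference of -0.65 ± 0.13 (edgeR adjusted p = 0.0132). The adjusted p was 0.0569 without the second MRC1+ library. Gpr34, a further receptor for lysophosphatidylserine, went the other way with 72.3, 74.3 and 61.4 against 34.2, 46.7 and 23.6 TMM CPM. It rose by 0.99 ± 0.21 (edgeR adjusted p = 0.0163), and the adjusted p was 0.0556 and 0.0617 without the first and the second MRC1+ library. Lpar6, a lysophosphatidic acid receptor, lies inside Rb1 and shares 408 exonic bases with it on the opposite strand. Since the use of strand in counting is not known, reads of the genes cannot be told apart there. Lpar6 was lower by a log2 difference of -0.62 (edgeR adjusted p = 0.0429), which passed in 8 of 13 alternatives. Its adjusted p was 0.0566 with upper-quartile scaling and over 0.05, at up to 0.128, without library 2 or library 3 of either sorted group. P2ry2, a receptor for ATP and UTP, stood at 14.7 ± 0.200 and 13.3 ± 1.83 TMM CPM and did not pass (edgeR adjusted p = 0.431). P2ry4 had a mean under 1 TMM CPM in each group.

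The other receptors were lower in MRC1+ TAMs where they could be tested. Adora2a, the adenosine receptor best known for restraining T cells and macrophages, was 1.95, 1.97 and 2.44 TMM CPM in MRC1+ and 7.13, 13.5 and 21.5 in CD11c+ TAMs. It fell by 2.71 ± 0.40 on the log2 scale (edgeR adjusted p = 0.00307), and the third CD11c+ library was the highest, as for Adora2b. Adora3 fell by 1.89 ± 0.36 (edgeR adjusted p = 0.00988), but it shares 779 exonic bases on the same strand with Tmigd3, so the genes cannot be told apart there. Adora1 stood at 0.115 TMM CPM or less in every library. Of 5 other P2X channels only P2rx5 passed the filter on low counts. P2rx5 was 0.573, 1.23 and 1.08 against 2.38, 2.73 and 2.55 TMM CPM and fell by 1.39 ± 0.29 (edgeR adjusted p = 0.0149). Its adjusted p was 0.0545 without the second CD11c+ library and 0.0529 with all 12 libraries in the fit.

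Among 11 other ecto-enzymes found, 7 were tested, with 1 higher and 1 lower. Enpp1, which cleaves ATP to AMP and pyrophosphate and also degrades cGAMP, was 35.7, 32.3 and 36.1 TMM CPM in MRC1+ and 10.9, 13.5 and 12.7 in CD11c+ TAMs. It rose by 1.49 ± 0.12 on the log2 scale (edgeR adjusted p = 0.000172). Dpp4 (CD26), which binds adenosine deaminase at the cell surface, was 1.66, 1.58 and 1.93 against 39.2, 41.8 and 48.3 TMM CPM, and it also belongs to the dendritic cell list above. Ada, the deaminase itself, was 9.47 ± 0.548 against 6.60 ± 1.61 TMM CPM (edgeR adjusted p = 0.0952). Cd38, which consumes NAD, was 322 ± 48.6 against 238 ± 57.2 TMM CPM (edgeR adjusted p = 0.125), and with the replicate block it passed (edgeR adjusted p = 0.0280).

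Of 8 genes for nucleotide release and adenosine uptake 7 were tested, with 1 higher and 2 lower. Slc29a3, a nucleoside transporter of lysosomes, was 36.5, 38.6 and 34.8 TMM CPM in MRC1+ and 65.7, 79.4 and 62.7 in CD11c+ TAMs, a log2 difference of -0.91 ± 0.11 (edgeR adjusted p = 0.00106). Panx1, a channel that releases ATP, and Slc28a2, a concentrative nucleoside transporter, differed by -0.50 ± 0.14 and 0.56 ± 0.16. Their edgeR adjusted p were 0.0450 and 0.0465, and both were over 0.05 without any 1 of the MRC1+ libraries, as was Panx1 without the second and Slc28a2 without the third CD11c+ library. They then reached at most 0.149 for Panx1 and 0.123 for Slc28a2. Panx1 was also at 0.0667 with upper-quartile scaling and at 0.0515 with a filter of 5 CPM in 3 libraries. Slc29a1, the main equilibrative adenosine transporter, was level at 57.4 ± 6.13 and 55.2 ± 0.903 TMM CPM (edgeR adjusted p = 0.712).

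Of the 6 inflammasome genes downstream of P2X7, 0 were higher and 3 were lower in MRC1+ TAMs, where P2rx7 itself stood higher. Pycard, the adaptor ASC, was 65.7, 50.9 and 51.8 against 77.9, 88.7 and 103 TMM CPM, a log2 difference of -0.67 ± 0.15 (edgeR adjusted p = 0.0172). Il1b, the cytokine matured by the inflammasome, was 1108, 1145 and 1579 against 2546, 3478 and 6015 TMM CPM, a log2 difference of -1.65 ± 0.31 (edgeR adjusted p = 0.00970). Gsdmd, the pore-forming gasdermin, differed by -0.50 ± 0.12 (edgeR adjusted p = 0.0298). Nlrp3, the sensor, was 138, 162 and 356 against 241, 379.6 and 737 TMM CPM, overlapped and did not pass (edgeR adjusted p = 0.156). It was lower in MRC1+ TAMs within each pair of same-numbered libraries, and it passed in the fit with a replicate block (edgeR adjusted p = 0.00230). Pycard was over the threshold, at up to 0.0700, without the second or the third MRC1+ library or the second CD11c+ library, and Gsdmd, at up to 0.107, without any 1 library other than the first CD11c+ library, and at 0.0504 with the replicate block.

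**Figure D4:**
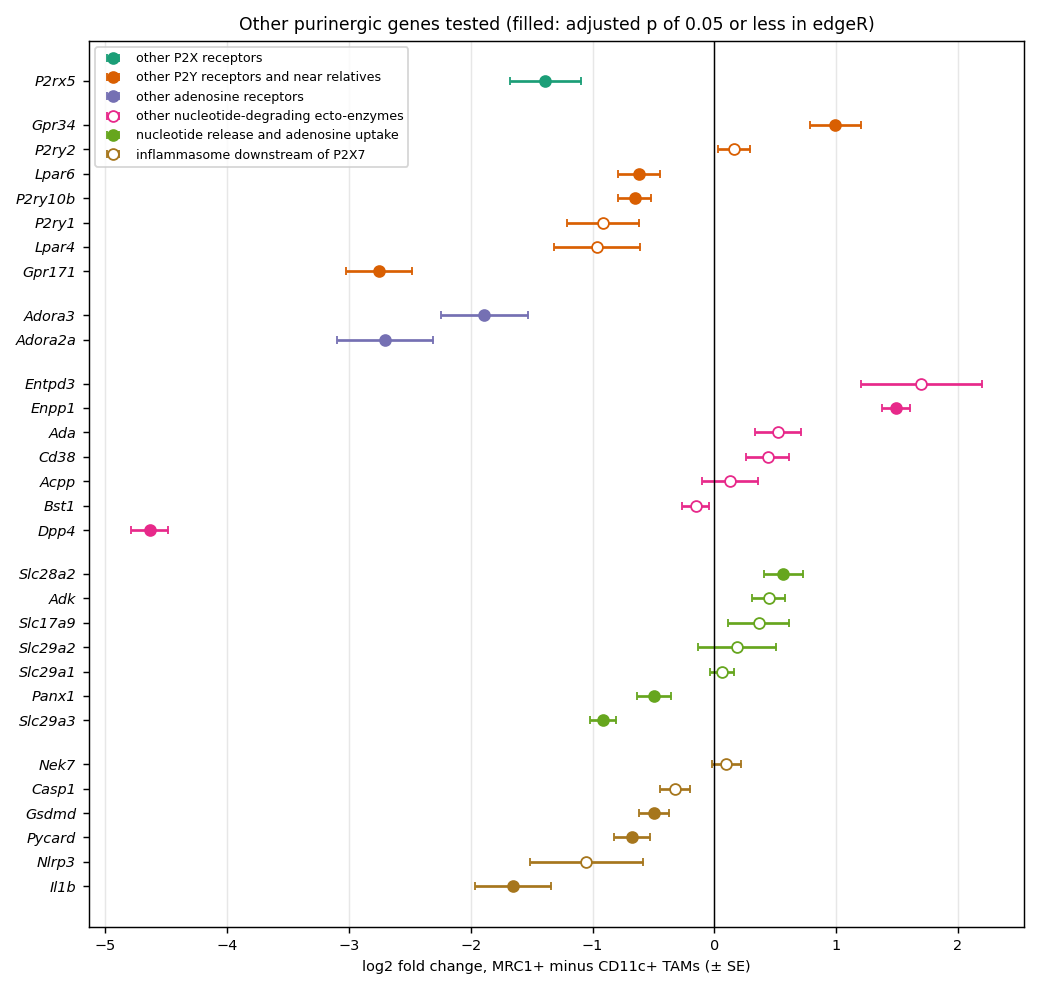
Log2 difference of MRC1+ minus CD11c+ TAMs with its SE for the 30 other purinergic genes tested, by list, with filled points at an edgeR adjusted p of 0.05 or less. The values run from -4.64 (Dpp4) to 1.70 (Entpd3, edgeR adjusted p = 0.0517), with 12 filled points below and 3 above 0.

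Genes that followed each member across the 12 libraries were named by the smallest mean absolute difference in log2(TMM CPM + 0.5), each gene centred on its own mean. This is a description of these libraries, and the 12 points share the sorted and overexpression sets. For P2ry10 the nearest were Il1r2, a decoy receptor for interleukin 1, at 0.35, Cd209a, a lectin of dendritic cells, at 0.39 and Klrd1 at 0.44, where P2ry10's own mean deviation from its mean was 1.94. Gpr171 was the 43rd nearest gene to P2ry10, at 1.07. P2ry12 was followed by Arhgap19 at 0.08, Tgfbr2, a receptor for TGF-β, at 0.09 and Lima1 at 0.10. P2rx7 was followed by Cd63 at 0.09, Fez2 and Snx24, and P2rx4 by Hgs, Gba2 and Gga3, the first at 0.06. Adora2b was followed by Pvr at 0.08, Thbs1, which encodes thrombospondin, at 0.11 and Smox at 0.13. Entpd1 was followed by Tmco4, Fam207a and Nucb2 at 0.05 each, and P2ry14 by Gbp9 at 0.11, Gm15753 at 0.12 and Lpcat2 at 0.15. The nearest to P2ry6 was Ubald1 at 0.08. For Nt5e it was Sulf2 at 0.24 and for P2ry13 Dgkh at 0.16, where their own mean deviations were 0.51 and 0.29.

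**Figure D5:**
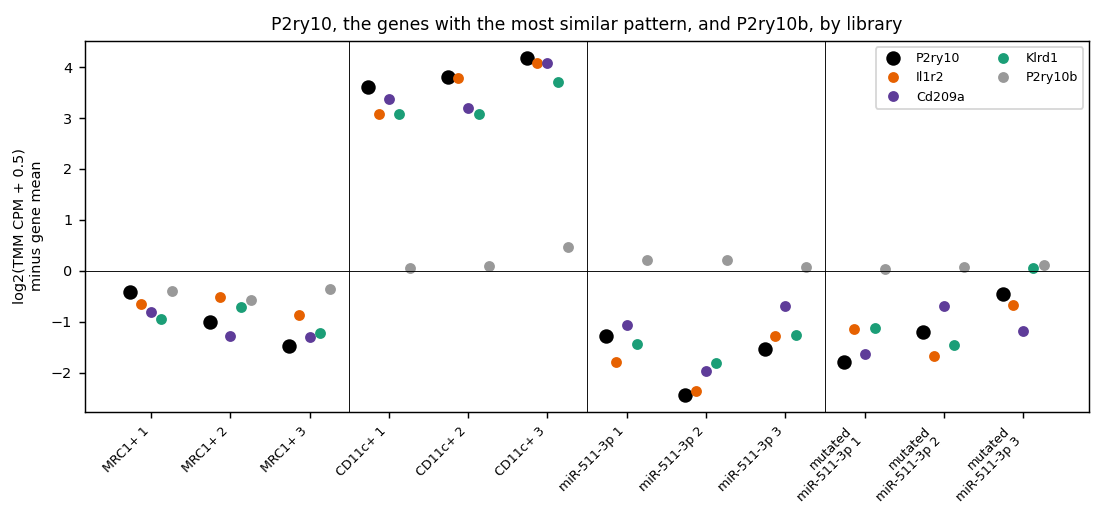
Log2(TMM CPM + 0.5) centred on each gene's mean over the 12 libraries (vertical axis) for P2ry10, Il1r2, Cd209a, Klrd1 and P2ry10b by library (horizontal axis). P2ry10 lies 3.62 to 4.19 above its mean in the CD11c+ libraries and below it in the other 9.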

How the data were processed

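The values deposited by the authors are raw gene counts, whole numbers per Ensembl identifier in 1 table for each library. Libraries were made from total RNA with an Illumina TruSeq RNA kit, per the labels' protocols. Alignment used the build mm9 (NCBIM37), and the tools listed are TopHat 1.2.0, Bowtie, HTSeq and SAMtools 0.1.12a, per the submitters' processing notes. No source used here states how strand and overlapping genes were handled in counting. The 5 summary entries of each table were left out of library sizes and tests. They include reads aligned to several places, 15.5% to 20.1% in sorted and 12.8% to 13.3% in overexpression libraries.

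Symbols, exon lengths and overlaps came from GENCODE M21 on GRCm38, a later build, with symbols for 31819 of 36439 identifiers. Promoters came from RefSeq's table on GRCm38.p6. Members and lists were chosen with earlier results of these data known. Each comparison used its 6 libraries in edgeR 4.0.16 (R 4.3.3) with TMM, filterByExpr, the quasi-likelihood test and Benjamini-Hochberg adjustment over all genes at 0.05, and SE is the log2 difference over the square root of F. All 10 members passed the filter on low counts in both comparisons. Named genes were the members, up to 4 passing genes of lowest p per list, the sort genes Mrc1, Itgax and Adgre1, and the 3 genes nearest in pattern with at least 5 TMM CPM. Other genes named were chosen after their values were seen.

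Alternatives were DESeq2 1.42.0, other scalings and filters, all 12 libraries in the fit, a replicate block and each library left out. Same-numbered libraries deviated together (correlations 0.105, 0.337 and 0.251 in the sorted and 0.147, 0.259 and 0.462 in the overexpression groups). By exception, miR-511-3p library 1 was closer to mutated library 2, at 0.165. The numbers were treated as pairs, from the data and not the labels, only in the replicate block. The main fits and the other alternatives did not use them, so their p-values are unpaired. On simulated counts with 200 changed genes edgeR recovered 80% of 2-fold and 99% of 4-fold changes for the sorted comparison (15419 genes). False calls were 5.79%. For the overexpression comparison (13919 genes) it recovered 76% and 94%, with 8.60% false calls. The adjusted threshold is easier to reach with 200 changed genes than where 0 genes pass, as in the real overexpression comparison. These shares therefore do not say how often a change in a member would have been found there.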

Additional observations from a re-analysis of the deposited data

How the results depend on the processing

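Calls over all genes in MRC1+ minus CD11c+ TAMs numbered 2597 and ranged from 1270 to 4707 when a library was left out. They were 4707 without the first and 1490 without the second CD11c+ library, and 1270 and 1279 without the second and the third MRC1+ library. In the overexpression comparison 0 genes passed, against 1 with DESeq2, 1 with all 12 libraries in the fit and 1 with the replicate block. No member passed there in any of the 13 alternatives. Calls among the other purinergic genes numbered 15 and ranged from 8 to 18 when a library was left out, with 8 without the second MRC1+ library. Gpr171, Adora2a, Adora3, Dpp4, Enpp1, Slc29a3 and Il1b passed in every alternative that tested them. Under the replicate block 18 of these genes passed: Gsdmd had an adjusted p of 0.0504, the other 14 calls remained, and Nlrp3, Cd38, Entpd3 and Adk passed at 0.00230, 0.0280, 0.0295 and 0.0161. No call of a member changed under the block in the overexpression comparison. With a library left out, sorted log2 differences ranged from -0.42 to 0.17 for P2ry13 and from -0.22 to 0.14 for P2rx4. In the overexpression comparison they ranged from -0.14 to 0.17 for P2ry12, -0.27 to 0.18 for P2ry13, -0.18 to 0.13 for P2ry14, -0.0277 to 0.0659 for P2rx4, -0.00944 to 0.0929 for Entpd1 and -0.37 to 0.23 for Nt5e. P2rx4 was also -0.00242 there with upper-quartile scaling and -0.00103 with all 12 libraries. Arms left with 2 libraries rest on a spread pooled over both groups. The cause of these shifts was not tested. Outside CD11c+ TAMs P2ry10 rests on 2.24 to 10.6 TMM CPM, or 55 to 229 reads a library. The part of depth in its spread was not tested.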

Other observations

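Several purinergic genes sat at unlike levels in the sorted and the overexpression libraries, which were not compared by a test and whose set cannot be told apart from the group. How large a share of all genes did so was not counted. Acpp, an acid phosphatase with ecto-5'-nucleotidase activity, was 9.84 to 18.9 TMM CPM in the 6 sorted libraries and 0.244 to 2.30 in the 6 overexpression libraries. Slc29a3 was 34.8 to 79.4 and 163 to 217 TMM CPM, and Slc28a2 70.1 to 135 and 199 to 275. Gpr34 lay between 23.6 and 74.3 TMM CPM in the sorted and between 15.1 and 28.4 in the overexpression libraries. Bst1, an NAD-consuming relative of Cd38, was 148 to 191 against 207 to 340.3 TMM CPM. Nek7, the kinase that NLRP3 binds, overlapped, at 129 to 177 and 156 to 178 TMM CPM.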
